A study of Mus musculus with 5 samples.

Results

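Retinoic acid is made inside cells from vitamin A, and 9 genes that make it, carry it, break it down or respond to it were followed here through mouse synovial sarcoma (SyS), a soft tissue cancer driven by an SS18::SSX fusion. They were *Aldh1a1*, *Aldh1a2* and *Aldh1a3* (synthesis), *Crabp1* and *Crabp2* (binding), *Cyp26a1* and *Cyp26b1* (breakdown) and *Rarb* and *Rarg* (receptors). They were picked by symbol from the 32286 features of each matrix, and all 9 were present.

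Single-cell RNA-seq was performed on 5 tumours of hSS2 mice, in which human *SS18::SSX2* is expressed from *Rosa26* after TATCre protein was injected into the limb at 8 days of life. All 5 tumours share this genotype and initiation, and no normal tissue or tumour without the fusion is among the samples. The mice were of a mixed strain (CB57Bl/6-svJ) and 2 to 6 months old, and the age for each tumour was not given in the sources used here. The labels put 2 tumours in BP (biphasic, with epithelial beside spindle cells), and 1 each in MP (monophasic, spindle cells), MP+BP and PD+MP (poorly differentiated and monophasic). The labels of both BP tumours share a leading number whose meaning was not stated, so whether they come from 1 animal is unknown. Histology was read on tissue next to the part that was sequenced, and it therefore does not classify single cells.

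Vitamin A (retinol) is oxidised first to retinaldehyde and then, by retinaldehyde dehydrogenases of the ALDH1A family, to retinoic acid. CRABP proteins hold retinoic acid in the cytoplasm, CYP26 enzymes oxidise it for disposal, and in the nucleus it binds retinoic acid receptors (RARs), which sit on DNA with RXR partners and switch target genes. In embryos, cells that make retinoic acid and cells that destroy it lie side by side, and the resulting gradients pattern limbs, somites and the hindbrain. *Rarb*, *Cyp26a1* and *Crabp2* are themselves classical target genes of the pathway.

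The matrices held 51670 called cells with 89996321 to 118649103 unique molecular identifiers (UMIs, one per captured RNA molecule) per tumour, and 39559 cells passed the filters. They formed 29 clusters, with the 9 genes kept out of the clustering. Of these clusters, 15 were SyS-like by fixed markers (26933 cells), with 3629 to 6662 cells per tumour. The 12 SyS markers summed to between 3142 and 4484 CPM (a gene's UMIs over those of all genes, scaled to a common total) in SyS-like cells, against 98.1 to 236 in endothelial-like and 115 to 163 in macrophage-like cells. They summed to 171 to 590 CPM in stromal cells (described below), highest in MP+BP. The sum reached up to 1142 in fibroblast-like and 3386 in neutrophil-like cells. The matrices' EGFP entry, a reporter sequence counted beside the mouse genes, averaged 35.3 CPM in SyS-like cells, 0.958 in endothelial-like, 1.64 in macrophage-like and 4.41 in stromal cells. Stromal cells are pericyte-like and fibroblast-like cells together, and their make-up differed by tumour: 123 of the 161 stromal cells of PD+MP were fibroblast-like, but 1 of 537 in MP. Library pairs shared 15 to 33 cell barcodes. All tests below compare sums of UMIs over the cells of a class, with the tumour as the replicate.

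In SyS-like cells the 9 genes fell into a well-detected group of 5 and a scarce group of 4. By mean CPM the order was *Rarb* (88.3 ± 37.5, SD, n = 5), *Crabp2* (75.2 ± 38.6), *Aldh1a2* (43.8 ± 23.8), *Rarg* (36.0 ± 6.44), *Cyp26b1* (21.4 ± 3.99), *Cyp26a1* (3.32 ± 2.00), *Crabp1* (2.68 ± 0.936), *Aldh1a3* (1.29 ± 0.692) and *Aldh1a1* (0.369 ± 0.213). In these 3′ libraries a transcript yields its tag at one end, so CPM is not divided by gene length. Of the neighbours in this order, only *Rarg* and *Cyp26b1*, and *Cyp26b1* and *Cyp26a1*, did not overlap across tumours. *Rarb* exceeded *Crabp2* in 2 of 5 tumours, and *Aldh1a2* exceeded *Rarg* in 2 of 5. *Rarg* and *Cyp26b1* were the steadiest, with the highest tumour 1.68 and 1.65 times the lowest, against 3.51 for *Crabp2*, 3.72 for *Aldh1a2* and 8.73 for *Cyp26a1*.

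**Figure D1:**
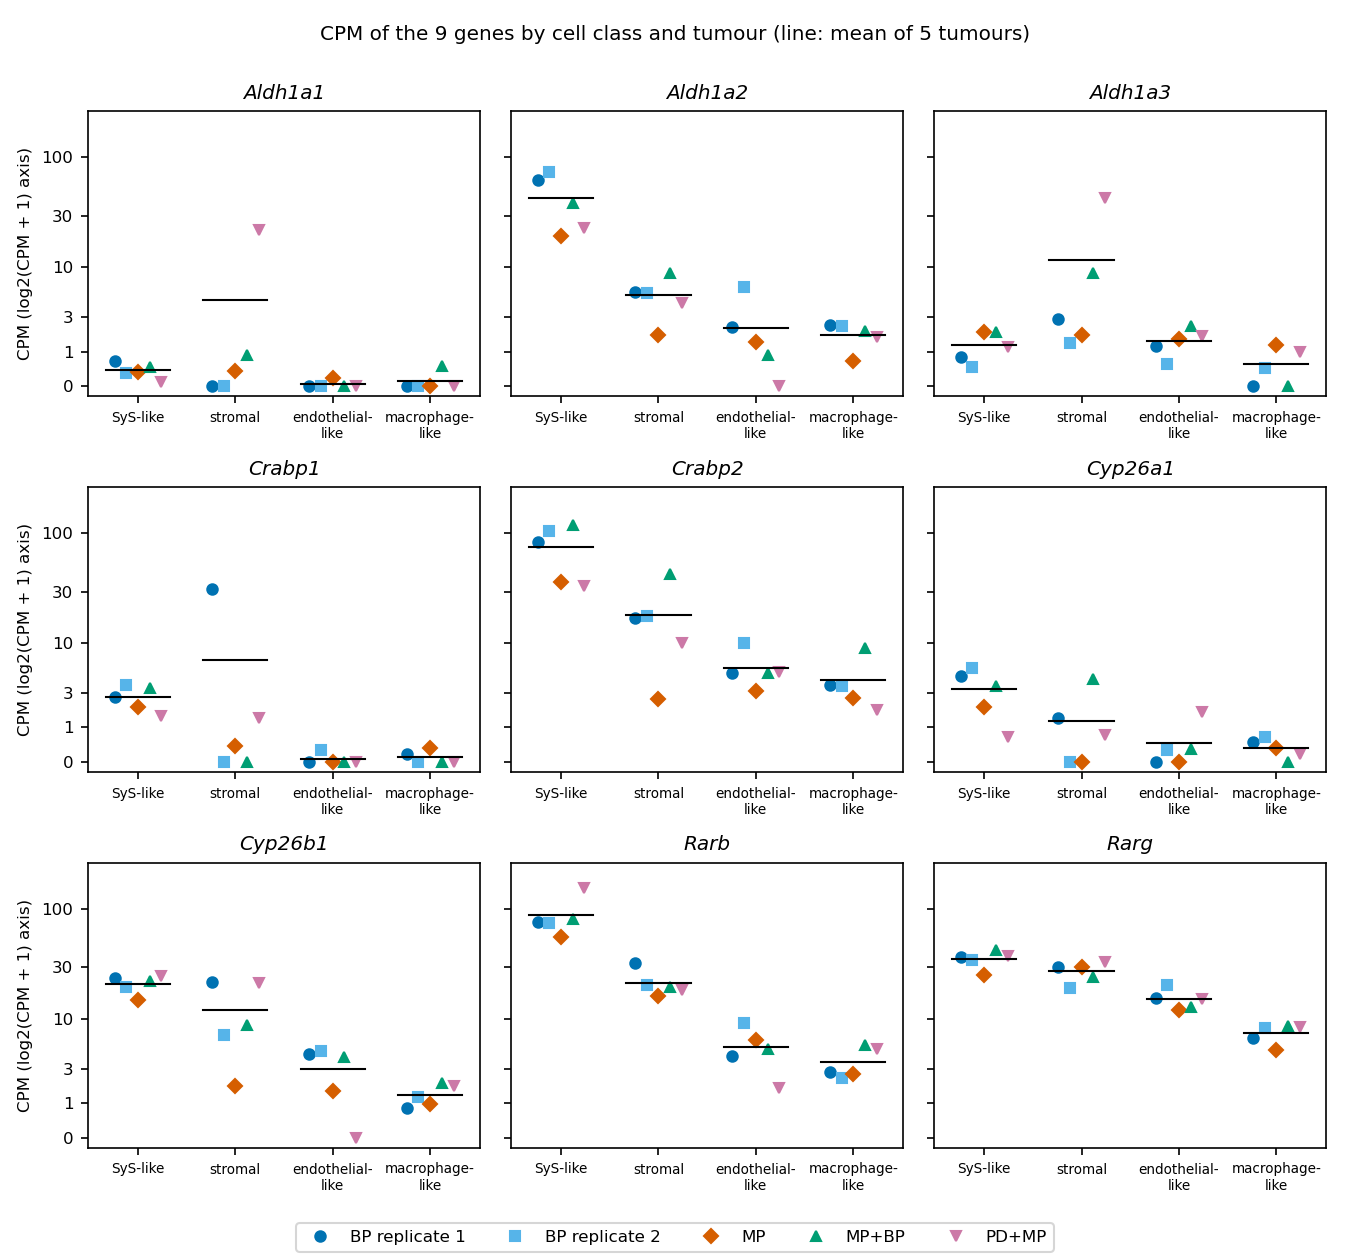
CPM of each of the 9 genes (vertical axis, spaced by log2 of CPM + 1) in SyS-like, stromal, endothelial-like and macrophage-like cells, with 1 point per tumour and a line at the mean of the 5 tumours. *Aldh1a2*, *Crabp2* and *Rarb* are high in SyS-like cells of all 5 tumours, while the stromal points of *Aldh1a1* and *Aldh1a3* stand high in PD+MP and that of *Crabp1* in BP replicate 1.

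Of the synthesis genes, *Aldh1a2* was the one counted in quantity in the tumour cells. *Aldh1a2* (chr9:71215789-71296243, plus strand, build GRCm38), the dehydrogenase that supplies most retinoic acid to the early embryo, reached 63.1 and 73.5 CPM in SyS-like cells of BP replicates 1 and 2, and 39.4 in MP+BP, 23.2 in PD+MP and 19.8 in MP. In stromal cells of the same tumours, in that order, it was at 5.69, 5.55, 8.70, 4.32 and 1.81 CPM. The lowest SyS-like value was thus above the highest value of the stromal sums. Fibroblast-like cells alone held *Aldh1a2* at 10.6 CPM over all tumours, but at 57.9 in MP+BP, on 7 UMIs in 4 of 14 cells. The difference between SyS-like and stromal cells was a log2 fold change of 2.82 ± 0.293 (SE). Its adjusted p was 0.000199 in edgeR's quasi-likelihood test with the tumour as a block. Against endothelial-like and macrophage-like cells it was 4.11 ± 0.310 (adjusted p = 2.5e-06) and 3.99 ± 0.239 (adjusted p = 3.49e-08, edgeR).

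The other 2 synthesis genes were scarce in tumour cells and had their highest levels in fibroblast-like cells. *Aldh1a1* (chr19:20492715-20643465, plus strand) gave 132 UMIs over all SyS-like cells, a level of 0.0829 to 0.654 CPM. *Aldh1a3* (chr7:66390890-66427517, minus strand) gave 465, a level of 0.463 to 2.00 CPM. The 148 fibroblast-like cells alone held *Aldh1a1* at 22.7 and *Aldh1a3* at 44.7 CPM over all tumours, and most of these cells came from PD+MP. In that tumour 22 of 123 fibroblast-like cells held a UMI of *Aldh1a1* and 32 held one of *Aldh1a3*. *Aldh1a3* was lower in SyS-like than in stromal cells (log2 fold change -2.48 ± 0.787, adjusted p = 0.0449, edgeR), in 4 of 5 tumours. This call was lost without BP replicate 1 (adjusted p = 0.096, edgeR), BP replicate 2 (0.0771), MP+BP (0.102) or PD+MP (0.0617, where the log2 fold change was -1.53). *Aldh1a1* did not pass against stromal cells (-2.12 ± 1.67, adjusted p = 0.376, edgeR), and without PD+MP its value was 0.17.

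Both binding proteins were present, at very different levels. *Crabp2* (chr3:87948666-87953376, plus strand), which hands retinoic acid to the receptors, reached 82.6 and 105.2 CPM in SyS-like cells of the BP tumours, 117.6 in MP+BP, 33.5 in PD+MP and 36.9 in MP. Stromal values in the same order were 17.1, 18.0, 43.5, 10.1 and 2.54 CPM. SyS-like cells were the higher in 5 of 5 tumours, although the ranges overlap because stromal cells of MP+BP exceeded SyS-like cells of MP and PD+MP. Fibroblast-like cells alone held *Crabp2* at 31.2 CPM over all tumours (44 UMIs), but with a median by tumour of 97.9 (0 to 260.2), against 82.6 in SyS-like cells. Of these UMIs, 13 lay in 6 of the 9 such cells of BP replicate 1 and 15 in 3 of the 14 of MP+BP. The 97.9 was the value of BP replicate 1. The 260.2 came from 3 UMIs in the only such cell of BP replicate 2, and the 0 from the only such cell of MP. The log2 fold change was 2.09 ± 0.312 (adjusted p = 0.00141, edgeR) against stromal, 3.60 ± 0.221 (adjusted p = 6.47e-07) against endothelial-like and 3.71 ± 0.212 (adjusted p = 2.37e-08) against macrophage-like cells. The EGFP entry in stromal cells was at 12.5% of its SyS-like level and *Crabp2* at 24.3%, while in macrophage-like cells they were at 4.65% and 5.53%. How much of the counts outside tumour cells is free RNA was not tested.

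*Crabp1* (chr9:54764748-54773110, plus strand), the second cytoplasmic binding protein, was at 1.53 to 3.75 CPM in SyS-like cells. It was all but absent from endothelial-like cells (1 UMI) and macrophage-like cells (2 UMIs). From these few UMIs the ratio of SyS-like to other cells was 49.1 (95% counting interval 8.79 to 1940.89) and 29.9 (8.24 to 246.8). Both differences passed the test (adjusted p = 0.000137 and 0.000319, edgeR), the first of them not when doublets were kept (adjusted p = 0.19). Against stromal cells the difference did not pass (0.04 ± 1.13, adjusted p = 0.989), with an interval of -2.52 to 2.59. In BP replicate 1, 7 of 9 fibroblast-like cells held 41 of its *Crabp1* UMIs, up to 14 in one cell, which put the stromal sum of that tumour at 32.0 CPM against 0 to 1.44 elsewhere.

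Of the breakdown enzymes, *Cyp26b1* was the prevalent one. *Cyp26b1* (chr6:84571414-84593908, minus strand), which keeps retinoic acid out of limb bud tips and fetal germ cells, stood at 24.1 and 19.8 CPM in SyS-like cells of the BP tumours, 22.6 in MP+BP, 25.2 in PD+MP and 15.2 in MP. Stromal values in this order were 22.0, 6.94, 8.70, 21.6 and 1.81 CPM, close to the tumour cells in BP replicate 1 and PD+MP and far below in MP. Against stromal cells it did not pass (0.90 ± 0.397, adjusted p = 0.126, edgeR), whereas against pericyte-like cells alone it did (2.28, adjusted p = 0.000562). Fibroblast-like cells held it at 43.2 CPM, and 30 of their UMIs lay in 4 of the 9 such cells of BP replicate 1. Against endothelial-like and macrophage-like cells the log2 fold changes were 2.48 ± 0.322 (adjusted p = 0.000118) and 3.50 ± 0.269 (adjusted p = 3.22e-07).

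*Cyp26a1* (chr19:37697798-37701536, plus strand) was sparse, at 4.61 and 5.67 CPM in the BP tumours, 3.60 in MP+BP, 0.649 in PD+MP and 2.05 in MP. It exceeded its level in macrophage-like cells in 5 of 5 tumours without overlap (2.61 ± 0.498, adjusted p = 0.000724, edgeR). Endothelial-like cells held 3 UMIs, a pooled ratio of 20.4 (6.95 to 98.8, counting error only), with an adjusted p of 0.00124. SyS-like cells were the higher in 4 of 5 tumours, since 1 UMI put endothelial-like cells of PD+MP at 1.72 CPM, and the ratio of the mean levels over tumours was 7.24. Against stromal cells the difference was 1.28 ± 0.793 (adjusted p = 0.26).

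The receptors differed in how far they were restricted to tumour cells. *Rarb* (chr14:16430839-16819156, minus strand) reached 76.6 and 74.4 CPM in SyS-like cells of the BP tumours, 81.0 in MP+BP, 153.3 in PD+MP and 56.4 in MP. Its stromal values in this order were 32.7, 20.8, 20.02, 18.7 and 16.3 CPM, so that no SyS-like value overlapped a stromal one. PD+MP stood apart, at nearly double the next tumour. Fibroblast-like cells alone held *Rarb* at 22.0 CPM over all tumours, but at 67.8 in BP replicate 1, on 9 UMIs in 3 of 9 cells. Log2 fold changes were 1.77 ± 0.248 (adjusted p = 0.001, edgeR) against stromal, 3.58 ± 0.307 (adjusted p = 6.22e-06) against endothelial-like and 4.12 ± 0.209 (adjusted p = 8.6e-09) against macrophage-like cells. The *Rarb* gene spans 388318 bases and overlaps *Top2b* and *Gm48162* on the opposite strand. Whether intronic reads were counted was not given in the sources used here.

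*Rarg* (chr15:102234938-102257517, minus strand) was at 25.8 to 43.4 CPM in SyS-like cells and at 19.4 to 33.9 in stromal cells, which overlap. It did not pass there (0.16 ± 0.221, interval -0.34 to 0.66, adjusted p = 0.636, edgeR), and it was lower but still counted in endothelial-like (12.1 to 20.6 CPM) and macrophage-like cells (4.86 to 8.52). Those differences were 1.04 ± 0.177 (adjusted p = 0.000733) and 1.78 ± 0.174 (adjusted p = 2.81e-06). Endothelial-like cells kept 42.8% of the SyS-like level of *Rarg*, against 2.71% of that of EGFP and 5.94% of that of *Rarb*.

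Outside these classes, levels were pooled over tumours because cells were few. Among dendritic-like, T/NK-like and mast-like cells no gene of the set exceeded 18.0 CPM, the level of *Rarg* in T/NK-like cells. The 171 neutrophil-like cells held *Rarb* at 30.7, *Rarg* at 26.3, *Crabp2* at 20.5, *Cyp26b1* at 16.1 and *Aldh1a2* at 13.2 CPM, with EGFP at 13.2 CPM beside them. The 4 unnamed clusters together (3925 cells, EGFP at 22.8 CPM) had *Rarb* at 105.01, *Crabp2* at 77.1, *Aldh1a2* and *Rarg* at 44.2 and *Cyp26b1* at 21.7 CPM, near the SyS-like levels, and were in none of the main tests. Of them, clusters 7, 13 and 22 met 7 to 10 of the 12 SyS markers. Cluster 28 (130 cells) scored best for B cells, with *Rarb* at 7.16 and *Crabp2* at 4.78 CPM.

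Counted over the set, 3 of 9 genes were higher and 1 lower in SyS-like than in stromal cells, where 15.5% and 12.1% of the 20272 genes tested were called in these directions. Against endothelial-like cells 8 of 9 were higher (30.5% of 20473 genes), all but *Aldh1a3*. *Aldh1a1* is among the 8 with an adjusted p of 0.0498 (edgeR) on 1 endothelial-like UMI, and it was lost without any 1 of the 5 tumours (adjusted p = 0.0565 to 0.19). Its call was lost in 10 of its 14 alternative runs in all. *Crabp1* and *Cyp26a1*, also among the 8, had 1 and 3 endothelial-like UMIs. These 3 genes thus passed the low-count filter through their SyS-like sums, which limits what the count of 8 shows. Against macrophage-like cells 7 of 9 were higher (36.4% of 20328 genes) and none lower (24.0%), and *Aldh1a1* and *Aldh1a3* did not pass. Among the 7, *Crabp1* had 2 macrophage-like UMIs. The median log2 fold change of the 9 was 0.90, 3.58 and 3.50 in these 3 comparisons, beside 0.19, 0.21 and 0.34 for all genes. All 4 calls against stromal cells were lost at the lower clustering resolution of 0.5. There the fibroblast-like cluster held 608 cells, 458 of them from SyS-like cluster 20, whose EGFP level was 36.3 CPM and whose *Aldh1a2* and *Crabp2* levels were the highest of the SyS-like clusters. When the SyS-like cells so reassigned were left out, an alternative chosen after seeing the data, *Aldh1a2* was at 2.78 (adjusted p = 0.00028, edgeR). That run kept the stromal sums of the main run, so it does not bear on the calls lost at resolution 0.5.

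**Figure D2:**
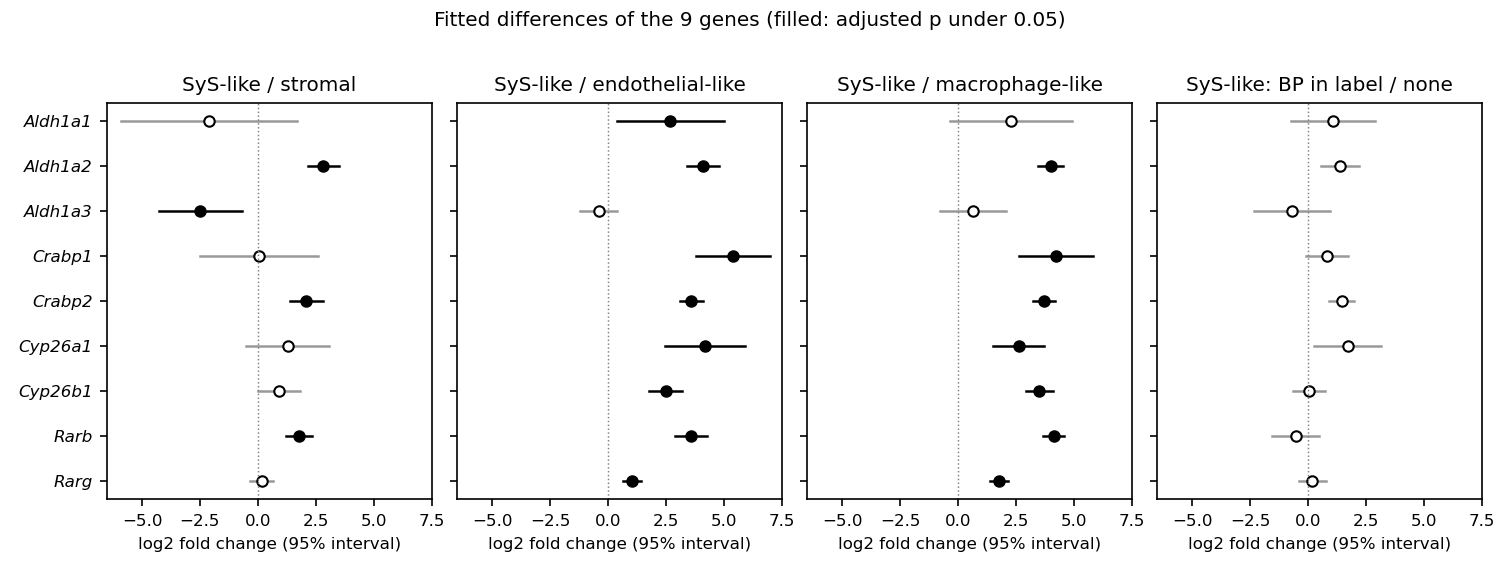
Log2 fold changes (horizontal axis, with 95% intervals) of the 9 genes for SyS-like against stromal, endothelial-like and macrophage-like cells, and for SyS-like cells with BP in the label against those without. Filled points have an adjusted p under 0.05 in edgeR, which holds for 4, 8, 7 and 0 of the 9 genes from left to right.

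Detection per cell was highest for *Crabp2* and *Rarb*. A UMI of *Crabp2* was found in 53.3% of SyS-like cells (median of 5 tumours, range 24.9 to 61.0%), of *Rarb* in 44.4%, of *Rarg* in 32.3%, of *Aldh1a2* in 24.9% and of *Cyp26b1* in 19.7%. With every cell thinned to 3000 UMIs, leaving out 2029 shallower SyS-like cells (the median before thinning was 9691 UMIs, against 5517 in macrophage-like cells), these medians were 20.7, 17.5, 9.65, 10.5 and 5.64%. At the same depth, macrophage-like cells held *Crabp2* in 1.43%, *Rarb* in 1.06%, *Rarg* in 2.33%, *Aldh1a2* in 0.599% and *Cyp26b1* in 0.499% of 3007 cells. By role and after thinning, 27.7% of SyS-like cells held a UMI of a receptor gene, 19.9% of a binding gene, 12.5% of a synthesis gene and 6.3% of a breakdown gene. Fibroblast-like cells reached 18.7% for synthesis on 139 cells, where the UMIs belonged mainly to *Aldh1a3* and *Aldh1a1*.

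Detection of 2 genes in the same cell was counted for the 6 pairs among *Aldh1a2*, *Crabp2*, *Cyp26b1* and *Rarb*. Among thinned SyS-like cells of BP replicate 2, 26.3% of those with *Aldh1a2* also held *Crabp2*, against 26.7% of those without. In PD+MP the shares were 8.14 and 9.51%. For *Aldh1a2* and *Rarb* they were 30.5 and 31.5% in PD+MP, and 24.2 and 17.1% in MP+BP, the widest gap among the tumours for that pair. For *Aldh1a2* and *Cyp26b1* the order varied by tumour, with 3.76% against 6.36% in MP+BP but 5.77% against 4.0% in MP. In PD+MP the shares of this pair were 8.14 and 5.88%, and in BP replicates 1 and 2 they were 5.08 and 5.76%, and 4.88 and 4.92%. Cells share their tumour and cluster, so these shares are descriptions without a test.

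Promoter sequences were available for 7 of the 9 genes (RefSeq, GRCm38.p6, 250 bases before to 50 after the start) and were searched for the textbook retinoic acid response element. It was taken as 2 half-sites in the same direction with 5 bases between them, on either strand. A half-site was AGGTCA, the standard form, or AGTTCA, or else GGGTCA, or finally GGTTCA. Only *Rarb* and *Cyp26a1* held one, as did 32 of 32851 promoters of this length (0.097%). Repeats with spacers of 1 and 2 bases, held by 0.222 and 0.268% of promoters, were in none of the 7. The 2 promoters are shown because these genes are classical targets of the pathway and yet differ widely in level in the same cells, 88.3 against 3.32 CPM. The *Rarb* window lies inside the gene's interval, not at its upstream end, and no other start of *Rarb* was searched. CPM counts the whole gene, so the *Rarb* level cannot be assigned to this promoter. Capitals mark the repeat with its spacer. In *Rarb* (chr14:16575427-16575726, minus strand) it runs with the gene from position -53 to -37 relative to the start, and in *Cyp26a1* (chr19:37697558-37697857, plus strand) against it from -32 to -16.
Rarb: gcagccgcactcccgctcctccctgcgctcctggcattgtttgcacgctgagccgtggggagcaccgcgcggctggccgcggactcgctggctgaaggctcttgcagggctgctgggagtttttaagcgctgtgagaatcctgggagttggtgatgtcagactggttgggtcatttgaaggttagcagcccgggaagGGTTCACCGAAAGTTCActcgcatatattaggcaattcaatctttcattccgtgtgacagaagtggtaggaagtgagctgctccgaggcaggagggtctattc
Cyp26a1: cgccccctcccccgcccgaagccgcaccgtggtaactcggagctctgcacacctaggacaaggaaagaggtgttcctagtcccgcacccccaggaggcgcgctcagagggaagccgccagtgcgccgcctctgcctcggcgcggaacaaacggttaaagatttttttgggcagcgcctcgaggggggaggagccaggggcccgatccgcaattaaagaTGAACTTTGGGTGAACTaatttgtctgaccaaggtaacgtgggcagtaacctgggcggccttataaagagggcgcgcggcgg
A match gives the letters of this window and does not show that a receptor was bound in these tumours. *Crabp2* and *Aldh1a3* had no entry.

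Among SyS-like clusters the genes varied unevenly. *Crabp2* ran from 19.8 CPM in cluster 9 to 158 in cluster 20, *Aldh1a2* from 18.7 in cluster 4 to 126 in cluster 20, and *Rarb* from 48.5 in cluster 19 to 239 in cluster 9. *Cyp26b1* and *Rarg* changed least, by 2.43 and 2.44 times between the lowest and highest cluster. Most clusters came largely from 1 tumour, so that cluster and tumour cannot be told apart for them. Clusters 2, 9 and 15 came almost wholly from PD+MP (98.8% or more) and had *Rarb* at 168, 239 and 102 CPM. Clusters 0, 5 and 11, mostly from BP replicate 2, had *Aldh1a2* at 68.3 to 72.6 CPM and *Crabp2* at 78.9 to 114. In clusters 10, 11 and 15, with *Mki67* (a gene of dividing cells) at 285 to 343 CPM, *Cyp26b1* was at 24.4 to 32.4 CPM. Cluster 17, led by the epithelial genes *Rab25* and *Cdh1* (E-cadherin, at 43.7 CPM) and with 80.0% of its cells from BP replicate 1, had *Crabp2* at 70.6, *Aldh1a2* at 64.6 and *Rarb* at 72.8 CPM, all within the range of the other clusters.

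**Figure D3:**
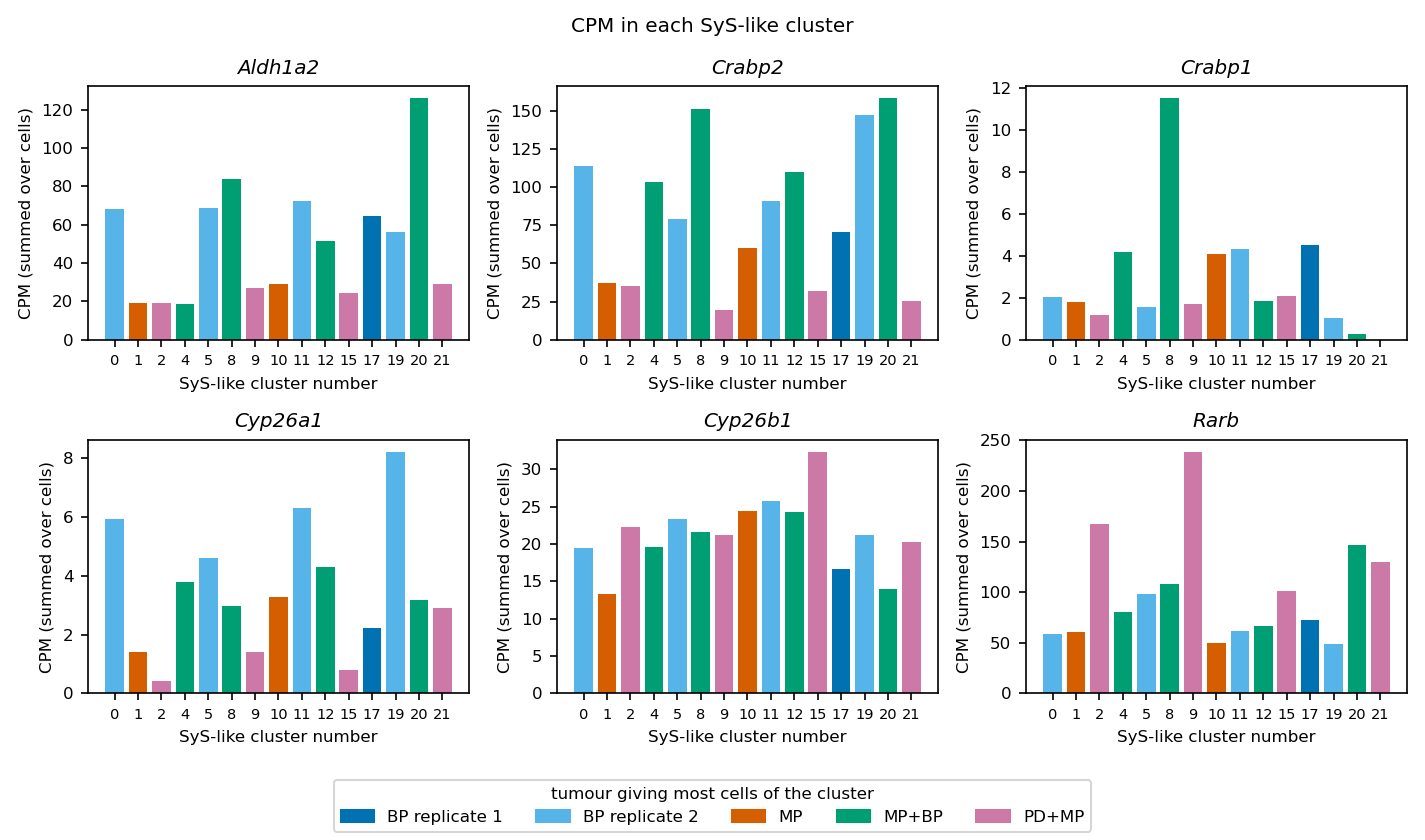
CPM of 6 of the genes (vertical axes, each from 0) in the 15 SyS-like clusters, coloured by the tumour that gave most of the cluster's cells. *Rarb* is highest in clusters 9 and 2 of PD+MP, *Aldh1a2* and *Crabp2* in cluster 20, and *Crabp1* in cluster 8.

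Cluster 8 held cells of all 5 tumours (177 and 491 of the BP replicates, 937 of MP+BP, 113 of PD+MP and 108 of MP) and allowed tumours to be compared within one cluster. Cluster 10, with 54.1% of its cells from MP, also held at least 20 cells of each tumour. It was not compared by tumour here, so the values below describe cluster 8 only. Cluster 8 was led by *Bmp5*, *Cartpt* and *Penk*, and its *Col1a1*, the main collagen of connective tissue, stood at 2047 CPM. *Aldh1a2* was at 83.4, 88.4, 79.6, 88.4 and 96.6 CPM there in this order, with counting intervals that overlap, and without the spread of 19.8 to 73.5 seen over all SyS-like cells. *Crabp2* was at 107.9, 160.3, 177.4, 77.3 and 41.2 CPM, so that BP and MP+BP stayed above MP and PD+MP. *Rarb* was at 268.3 CPM in PD+MP (95% counting interval 229.5 to 311.8) against 54.0 to 120.2 in the others. *Crabp1* reached 11.5 CPM over the cluster, its highest, through BP replicate 2, where 37 of 491 cells held 114 UMIs with up to 25 in 1 cell.

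**Figure D4:**
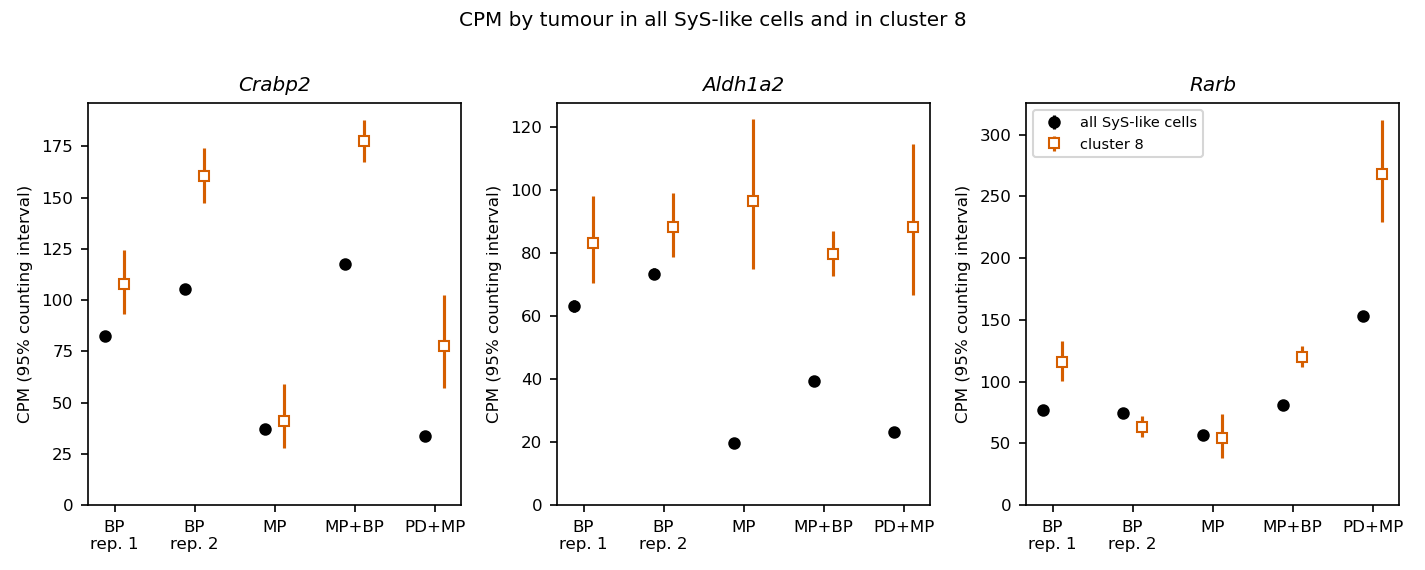
CPM of *Crabp2*, *Aldh1a2* and *Rarb* by tumour in all SyS-like cells (filled circles) and in cluster 8 (open squares), with 95% counting intervals. *Aldh1a2* is level across tumours in cluster 8 (79.6 to 96.6 CPM), while *Crabp2* and *Rarb* differ between tumours in both.

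The label comparison asked whether SyS-like cells of the 3 tumours labelled BP or MP+BP differed from those of MP and PD+MP. No gene of 20742 passed (0% higher and 0% lower in edgeR, 2035 at an unadjusted p under 0.05), and none of the 9 did. DESeq2 called 424 genes higher and 96 lower, among them *Crabp2* (1.46, adjusted p = 6.62e-05) and *Aldh1a2* (1.38, adjusted p = 0.0263). In CPM, *Crabp2* averaged 101.8 ± 17.7 (SD, n = 3) with BP and 35.2 ± 2.43 (n = 2) without, a log2 fold change of 1.45 ± 0.225 in edgeR (unadjusted p = 0.000728, adjusted p = 0.473). *Aldh1a2* averaged 58.6 ± 17.5 and 21.5 ± 2.45 (1.37 ± 0.336, unadjusted p = 0.00681 in edgeR), and *Cyp26a1* 4.63 ± 1.04 and 1.35 ± 0.990 (1.71 ± 0.587, unadjusted p = 0.0277). The values of these 3 genes and of *Crabp1* did not overlap between the labels (MP and PD+MP below all others), where 16.5% of all genes were so separated in this direction. No member was separated in the other direction (10.4% of genes). *Rarb* went from -0.53 ± 0.412 to 0.41 without PD+MP. By the tumour giving most of their cells, clusters 0, 4, 5, 8, 11, 12, 17, 19 and 20 fell with BP and 1, 2, 9, 10, 15 and 21 without. Some of these were mixed, such as cluster 10 with 54.1% of its cells from MP. In cluster 8, as given above, *Aldh1a2* did not follow the label and *Crabp2* did. The part of cluster make-up in the label comparison was not tested. *Uty*, a Y-linked gene, was among the 10 leading genes of clusters 2 and 9 of PD+MP, and the part of sex in the label comparison was not tested. In an edgeR interaction term of class and label no member passed (adjusted p = 1 for each), and with 3 against 2 tumours the intervals were wide, from -0.63 to 11.83 for *Aldh1a1* and from -0.11 to 1.69 for *Rarg*.

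Other genes of the pathway, taken from a list of 42, did not move as a block. Against stromal cells 5 of 37 tested were higher (15.5% of all genes) and 7 lower (12.1%), with a median log2 fold change of -0.22. Against endothelial-like cells 12 of 39 were higher (30.5% of all genes) and 10 lower (21.6%), with a median of 0.24. Against macrophage-like cells 14 of 36 were higher (36.4%) and 10 lower (24.0%), with a median of 0.26. Medians over all genes are given above.

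Transport proteins were split by cell class. *Ttr* (transthyretin, which carries retinol-binding protein in blood) averaged 44.0 ± 29.0 CPM (SD, n = 5) in tumour cells and 1.94 ± 0.853 in stromal cells (4.26 ± 0.393, adjusted p = 0.000102, edgeR). *Rbp7*, a cellular retinol-binding protein, averaged 267 ± 41.9 CPM in endothelial-like and 1.11 ± 0.301 in SyS-like cells (-8.09 ± 0.187, adjusted p = 2.76e-09). *Fabp5*, a fatty acid carrier that can also bring retinoic acid to the nucleus, was at 458 to 3765 CPM in macrophage-like against 19.1 to 58.4 in SyS-like cells (-5.51 ± 0.349, adjusted p = 5.62e-08). *Adh7*, a retinol-oxidising alcohol dehydrogenase, was at 1.44 to 29.1 CPM in stromal cells and at most 0.403 in SyS-like cells (-6.13 ± 0.876, adjusted p = 0.00111).

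Response genes were also divided. *Tgm2*, a transglutaminase classically induced by retinoic acid in macrophages, averaged 188 ± 44.1 CPM in macrophage-like and 0.987 ± 0.372 in SyS-like cells (-8.14 ± 0.261, adjusted p = 2.08e-10, edgeR). It was also lower in SyS-like than in stromal (-4.07 ± 0.496, adjusted p = 0.000481) and endothelial-like cells (-4.35 ± 0.285, adjusted p = 9.98e-07). *Nr2f2*, an orphan nuclear receptor, was at 43.4 ± 8.96 CPM against 559 ± 224 in stromal cells (-3.78 ± 0.366, adjusted p = 0.000133). *Nr2f2* was also lower than in endothelial-like cells (-1.39 ± 0.155, adjusted p = 3.89e-05, edgeR) but higher than in macrophage-like cells (3.76 ± 0.287, adjusted p = 3.01e-07). The limb and hindbrain homeobox genes *Meis1* and *Meis2* were higher in SyS-like cells than in stromal, endothelial-like and macrophage-like cells alike. *Meis1* averaged 184 ± 35.5 CPM in SyS-like and 5.21 ± 2.65 in endothelial-like cells (5.13 ± 0.216, adjusted p = 6.36e-08), and *Meis2* at 332 ± 47.4 against 7.77 ± 2.93 in macrophage-like cells (4.96 ± 0.203, adjusted p = 1.56e-09). *Rxrg*, an RXR partner, passed against macrophage-like cells (adjusted p = 0.0495) at 0.171 to 0.576 CPM against 0 in every sum, too few UMIs for a fold change.

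The genes most like each member were those with the highest Pearson correlation of log2(CPM + 1) over 36 sums by tumour and class, out of 17775 genes. The sums share libraries and differ in depth, so the values are descriptive. For *Rarb* they were *Dpyd*, *Ptprd* and *Tmem151a* (r = 0.88 to 0.87), for *Cyp26b1* *Sulf1*, *Ptpdc1* and *Sox14* (0.88 to 0.82), for *Crabp2* *Pqbp1*, *Usp9x* and *Fgf14* (0.85 to 0.80), for *Rarg* *Gas1*, *Snap47* and *H1fx* (0.84 to 0.80) and for *Aldh1a2* *Zfp612*, *Mapk10* and *Cdon* (0.80 to 0.78). *Aldh1a3* was most like *Scara3*, *Gm32219* and the collagen gene *Col1a1* (0.80 to 0.78), and *Cyp26a1* like *C1ql4*, *Adora1* and *Galnt14* (0.78 to 0.76). *Aldh1a1*, counted in few sums, had *Arsi*, *Galr2* and *Gm49257* (0.98). *Crabp1* did not reach the level set for this measure.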

How the data were processed

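Single-cell RNA-seq was performed by the authors on dissociated tumours with droplet-based 3′ chemistry. Each deposited matrix, made by the authors with Cell Ranger 7.2.0 per the file headers, holds whole UMI counts for every gene in every cell. The submitters' processing notes name build mm10. Nothing was normalized, and each matrix held 1 tumour. Cells with at least 750 genes and at most 25% mitochondrial counts were kept, and the highest Scrublet scores (scanpy 1.11.5) were removed up to the expected doublet share, 2957 cells in all, because the automatic threshold marked 2 cells in PD+MP. Leiden clustering (leidenalg 0.10.2, resolution 1) used 3000 features and 30 principal components. Clusters were named "X-like" from at least 3 fixed markers. These names are rebuilt here and may differ from the study's. Of the clusters, 4 stayed unnamed and were left out.

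Sums per tumour and class were tested with edgeR 4.0.16 (TMM, filterByExpr, quasi-likelihood, Benjamini-Hochberg over all genes tested), with the tumour as a block between classes, checked on simulated data. DESeq2 1.42.0 was an alternative. Two-sided tests were used throughout. Intervals at 95% of CPM, shares and pooled ratios, and floors of 3 UMIs, cover counting error only. Those of log2 fold changes come from the edgeR fit and also carry the variation between sums. Between classes, p-values weigh the difference against the variation left after the tumour block, and for the label against the spread between these tumours. Of 32286 feature identifiers, 32235 occurred in GENCODE M21 (GRCm38, the same assembly as mm10), the source of gene coordinates. Pathway genes named are the 4 per comparison with the largest called change of the same sign in all 5 tumours. The members and lists were chosen with earlier results of these data known.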

Additional observations from a re-analysis of the deposited data

Results flagged for a closer look

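A gap between 1 tumour and the other 4 larger than Dixon's 95% limit for 5 values (0.71 of the range) was looked for in 36 sets of values, 9 genes in 4 classes. It was found in 11. Chance flags about 1 in 20 sets of continuous values, a rate that does not apply to scarce genes: where 1 tumour holds a single UMI and the others none, the gap is fixed by construction. The 5 tumours share a genotype but not a label.

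In SyS-like cells 1 gene stood out, *Rarb* at 153.3 CPM in PD+MP against 56.4 to 81.0 in the other tumours. In stromal cells *Crabp1* was at 32.0 CPM in BP replicate 1 against 0 to 1.44, *Rarb* at 32.7 in the same tumour against 16.3 to 20.8, *Aldh1a1* at 22.3 in PD+MP against 0 to 0.870, and *Aldh1a3* at 43.2 in PD+MP against 1.39 to 8.70. These 2 tumours held 9 and 123 fibroblast-like cells.

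In endothelial-like cells *Crabp2* was at 10.0 CPM in BP replicate 2 against 3.17 to 5.15. *Cyp26a1* was at 1.72 in PD+MP against 0 to 0.295, *Crabp1* at 0.279 in BP replicate 2 against 0, and *Aldh1a1* at 0.176 in MP against 0, each from 1 UMI. In macrophage-like cells *Crabp2* was at 9.02 CPM in MP+BP against 1.84 to 3.71, and *Aldh1a1* at 0.501 in MP+BP against 0, from 1 UMI.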

How the results depend on the processing

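Calls against endothelial-like and macrophage-like cells numbered 7 to 8 in every alternative run. Against stromal cells 3 to 5 members were called in all alternatives except resolution 0.5, which gave 0, with *Crabp2* at 0.79, *Aldh1a2* at 0.14 and *Rarb* at 0.71, and 458 SyS-like cells of cluster 20 in the fibroblast-like class. For the label 0 were called in all alternatives but DESeq2, which called 2. Leaving out 1 tumour gave 3 to 4 calls against stromal, 7 against endothelial-like, 7 against macrophage-like cells and 0 for the label, where the lone remaining tumour of a side is assumed to vary like the others. Thinning to 3000 UMIs moved the median shares of SyS-like cells to 20.7% for *Crabp2*, 17.5% for *Rarb*, 9.65% for *Rarg*, 5.64% for *Cyp26b1*, 1.02% for *Cyp26a1*, 0.631% for *Crabp1* and 0.093% for *Aldh1a1*, by its construction.

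Signs turned only for genes that were not called. Against stromal cells, leaving out 1 tumour put *Crabp1* between -0.51 and 2.02 (the latter without BP replicate 1, below 0 without any other) and *Aldh1a1* between -2.94 and 0.17. *Crabp1* was at -1.57 with no tumour block. *Aldh1a1* was at 1.10 against pericyte-like cells alone. *Rarg* was at -0.006 with doublets kept, -0.031 with the automatic doublet threshold and -0.10 at resolution 0.5. For the label, leaving out 1 tumour put *Cyp26b1* between -0.29 and 0.49, *Rarg* between -0.077 and 0.54 and *Rarb* between -1.09 and 0.41, the ends coming from MP and PD+MP. Causes were not tested. Leaving out MP also made edgeR call 271 genes higher and 173 lower for the label, none of them a member.

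The label comparison could not be paired, because each tumour has only its own label. The class comparisons were paired through the tumour block. Without the tumour block, i.e. no replicate block between classes, *Aldh1a1* was called against stromal cells (-4.00, adjusted p = 0.0215, edgeR) and fell under the filter against endothelial-like cells, and no other member's call changed. *Aldh1a3* against stromal cells was also lost without scaling beyond the total (adjusted p = 0.0506) and without the filter (0.0503). *Aldh1a1* passed against macrophage-like cells only without scaling (2.81, adjusted p = 0.0441). Adding the unnamed clusters with SyS markers, and leaving out the cells reassigned at resolution 0.5, were chosen after seeing the data.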

Other observations

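The 4 pathway genes below were chosen after their values were seen. *Stra6*, the membrane receptor that takes up retinol, was at 55.4 and 42.9 CPM in SyS-like cells of the BP tumours, 12.3 in MP+BP, 10.4 in PD+MP and 1.55 in MP. It was higher than in stromal cells (3.14 ± 0.525, SE, adjusted p = 0.00254, edgeR). *Rdh10*, which oxidises retinol to retinaldehyde, was at 229.7 and 219.8 CPM in the BP tumours, 39.7 in MP+BP, 123.4 in PD+MP and 52.0 in MP.

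*Dhrs3*, which reduces retinaldehyde back to retinol, was at 126 to 187 CPM in macrophage-like cells and at 6.90 to 27.5 in SyS-like cells (-3.56 ± 0.281, adjusted p = 4.15e-07, edgeR), lowest in PD+MP. *Rara*, the RAR not among the 9 genes, was at 37.1 to 65.1 CPM in SyS-like and 56.6 to 73.0 in endothelial-like cells.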
